A study of Arabidopsis thaliana with 12 samples.

Results

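The autophagy genes examined here are the 8 probe sets of the Affymetrix ATH1 array that its annotation table assigns to a single gene with a symbol of ATG followed by a digit, out of 22746 probe sets that are not controls. They stand for ATG3 (AT5G61500, probe set 247542_at) and 7 genes of the ATG8 family, namely ATG8B (AT4G04620, 255283_at), ATG8C (AT1G62040, 264285_at), ATG8D (AT2G05630, 265510_at), ATG8E (AT2G45170, 266106_at), ATG8F (AT4G16520, 245391_at), ATG8G (AT3G60640, 251393_at) and ATG8H (AT3G06420, 258880_at). Each gene had 1 probe set, and all 8 were matched to their locus in RefSeq. All 8 were tested, with no filter on low values.

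Autophagy encloses portions of the cytoplasm in a membrane vesicle, the autophagosome, and carries them to the vacuole for breakdown. ATG8 is a small ubiquitin-like protein that is attached to the lipid phosphatidylethanolamine of the growing membrane, where it serves in membrane growth and in the capture of cargo through receptors. The attachment needs the activating enzyme ATG7, the conjugating enzyme ATG3 and a complex of ATG12 with ATG5, after the protease ATG4 has trimmed ATG8 at its end. Arabidopsis has a family of ATG8 genes, in which ATG8H and ATG8I encode proteins that already end at the glycine that is attached and lack the piece that ATG4 removes. In leaves the pathway is known for the recycling of nutrients during starvation and senescence and for a part in tolerance of drought and salt.

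RNA came from vegetative rosettes of Arabidopsis thaliana plants aged 4 weeks. The 12 arrays formed 6 groups of 2 biological replicates: the atx1 mutant under water deficit and watered, the MYO-OX line under water deficit and watered, and Columbia-0 wild type under water deficit and watered. Water was withheld from the water-deficit plants down to a relative water content of 65%, and the other plants stayed watered. ATX1 is a chromatin modifier of the trithorax family, and MYO-OX is named in the study for the myotubularin homolog MYO1. The allele and background of atx1, the promoter of MYO-OX, the number of independent lines and the number of plants per sample are not given in the sources used here. The annotation used names a probe set for neither ATX1 nor MYO1, so neither the level of ATX1 in the mutant nor that of MYO1 in MYO-OX was analysed here, and the genotype labels were not checked against these genes. Levels are log2 signals, on which a step of 1 is a factor of 2, and a change is a difference of group means with the standard error (SE) from limma. The number of arrays limits the precision, and levels of different probe sets are not compared with each other. Members of the ATG8 family are alike in sequence, and signal shared between their probe sets was not tested.

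The mesophyll gene RCA, the measured marker of leaf tissue, lay at or above at least 99.4% of probe sets in each group, and the root hair gene EXPA7 (EXP7) lay at or above 21.8% to 34.3% of them. Watered MYO-OX replicate 1 stood apart from the others, with RCA at 10.81, against 12.44 to 13.78 on the remaining 11 arrays, and the replicates of this group correlated at 0.928 over all probe sets, the lowest of the 6 groups. The 3' signal of the GAPDH controls exceeded the 5' signal by 1.74 and 1.19 on the atx1 arrays under water deficit, and by 0.44 to 1.09 on every other array. Hybridization spikes had their highest mean on these atx1 arrays, 9.85 ± 0.26, and their lowest on the watered wild-type arrays, 8.48 ± 0.44 (SD, n = 2 each). The guard cell gene FAMA fell under water deficit by 0.74 in MYO-OX (adjusted p = 0.011) and by 0.97 in wild type (adjusted p = 0.00404), and had a change of -0.25 in atx1 (adjusted p = 0.532), while RCA was not called in any genotype. None of the 16 names of flower and seed markers was measured. Refits with the GAPDH difference or the hybridization spikes as a covariate are given below among the alternatives. No cause was assigned to either measure, and the part of the marker levels in the results was not tested.

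ATG8H rose steeply under water deficit in MYO-OX and in wild type, and ATG3 and ATG8B rose by smaller amounts in both genotypes. The other 5 ATG8 genes did not pass the test in any genotype. ATG8E was the gene whose water-deficit and watered arrays overlapped in all 3 genotypes. In atx1 none of the 8 passed, and the ATG8H change was lower there than in wild type (difference -2.28 on the log2 scale), a difference that did not pass its own test. The ATG8B change was alike in atx1, at 1.25, and in MYO-OX, at 1.23, though only the MYO-OX change passed. Whole rosettes were sampled, so fewer or more cells of a type and less or more RNA per cell cannot be told apart.

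**Figure D1:**
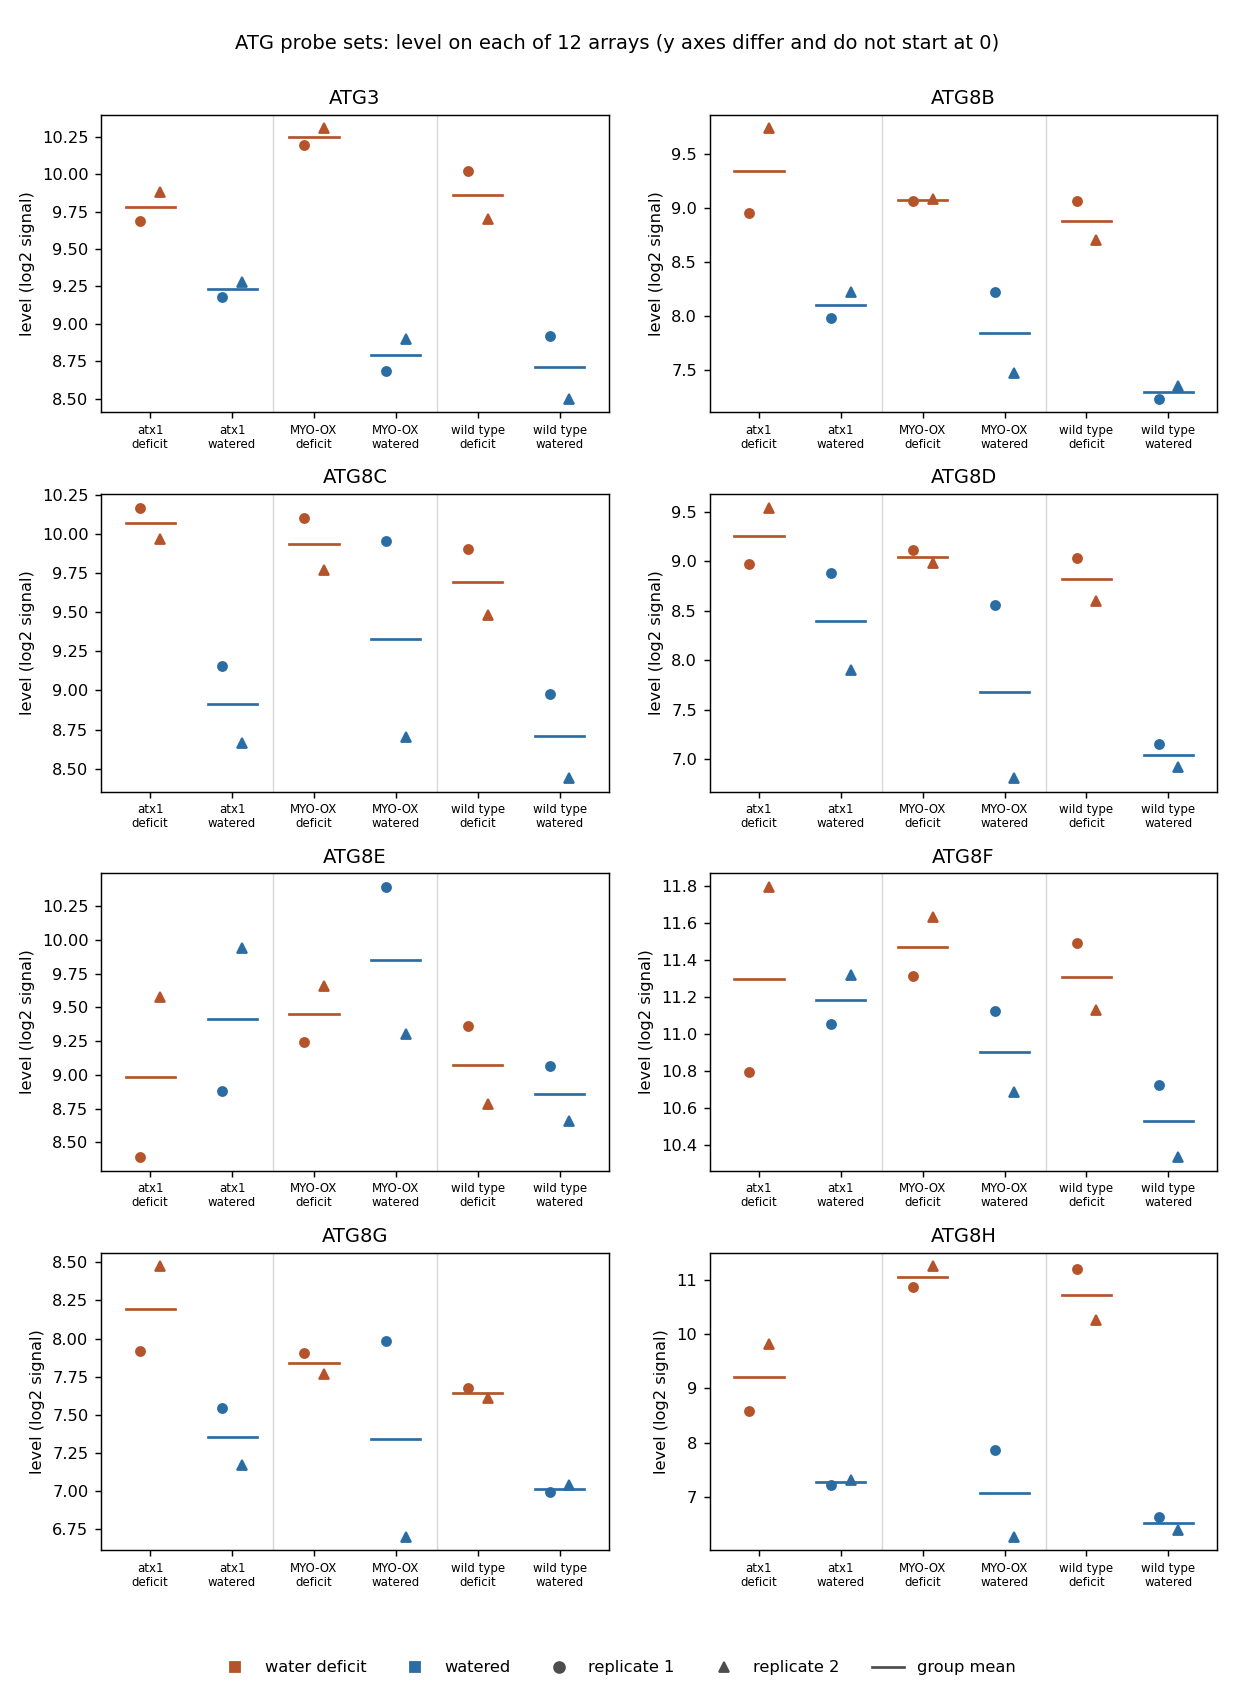
Level of each of the 8 ATG probe sets (vertical axis, log2 signal) on the 12 arrays, grouped along the horizontal axis by genotype and water state, with orange for water deficit, blue for watered, a circle for replicate 1, a triangle for replicate 2 and a line for the group mean. For ATG3, ATG8B and ATG8H every water-deficit array lies above every watered array, while ATG8E shows no separation.

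ATG3, the enzyme that hands ATG8 to its lipid, had 9.69 and 9.88 in atx1 under water deficit, against 9.18 and 9.28 in watered atx1. In MYO-OX it had 10.20 and 10.31 under water deficit, against 8.68 and 8.90 in watered plants. In wild type it had 10.02 and 9.70 under water deficit, against 8.92 and 8.50 in watered plants. The water-deficit arrays of all genotypes lay above all watered arrays, with 9.69 as the lowest water-deficit level and 9.28 as the highest watered one. ATG3 rose by 1.46 in MYO-OX (SE 0.20, 2.75-fold, adjusted p = 0.00184) and by 1.15 in wild type (SE 0.20, 2.22-fold, adjusted p = 0.00556). Its change in atx1 was 0.55 (SE 0.20, adjusted p = 0.214). The wild-type call was lost when water-deficit replicate 1 was left out (adjusted p = 0.0603), and the MYO-OX call when only the MYO-OX arrays were fitted (adjusted p = 0.0524).

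ATG8H, of the ATG8 type that needs no trimming, had 8.59 and 9.82 in atx1 under water deficit, against 7.22 and 7.31 in watered atx1. In MYO-OX it had 10.87 and 11.26 under water deficit, against 7.86 and 6.26 in watered plants. In wild type it had 11.20 and 10.27 under water deficit, against 6.63 and 6.39 in watered plants. No water-deficit array overlapped a watered one, and the 2 atx1 water-deficit arrays lay below the 4 water-deficit arrays of the other genotypes. ATG8H rose by 4.0 in MYO-OX (SE 0.57, 16.0-fold, adjusted p = 0.00217) and by 4.22 in wild type (SE 0.57, 18.7-fold, adjusted p = 0.00195). These changes were higher than those of 99.4% of all probe sets in MYO-OX and 99.6% in wild type. In atx1 the change was 1.94 (SE 0.57, 3.84-fold, adjusted p = 0.128), with a 95% confidence interval of 0.63 to 3.25. Group means ran, high to low, from MYO-OX, wild type and atx1 under water deficit to watered atx1, MYO-OX and wild type. In that order the arrays of neighbours did not overlap between wild type and atx1 under water deficit, nor between atx1 under water deficit and watered atx1, while the other neighbours overlapped.

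ATG8B had 8.95 and 9.74 in atx1 under water deficit, against 7.98 and 8.22 in watered atx1. In MYO-OX it had 9.07 and 9.08 under water deficit, against 8.22 and 7.47 in watered plants. In wild type it had 9.06 and 8.70 under water deficit, against 7.23 and 7.35 in watered plants. Here too the 2 water states did not overlap over the 12 arrays. ATG8B rose by 1.23 in MYO-OX (SE 0.32, 2.35-fold, adjusted p = 0.0243) and by 1.59 in wild type (SE 0.32, 3.02-fold, adjusted p = 0.00983), and its change of 1.25 in atx1 did not pass (SE 0.32, adjusted p = 0.0817). Before adjustment the limma p was 0.00394 in atx1 and 0.00426 in MYO-OX. The adjustment over all probe sets set atx1 and MYO-OX apart here, not the size of the change. The ATG8B calls in MYO-OX and in wild type were less firm than those of ATG8H. The MYO-OX call was lost when only the MYO-OX arrays were fitted (adjusted p = 0.122). In MYO-OX the call was lost without water-deficit replicate 1, water-deficit replicate 2 or watered replicate 2 (adjusted p = 0.0856, 0.0996 and 0.083). In wild type it was lost without replicate 1 of either water state (adjusted p = 0.0898 for water deficit, 0.0679 for watered). Without atx1 water-deficit replicate 1 the atx1 change was 1.64 and passed (adjusted p = 0.0496).

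ATG8D had 8.97 and 9.54 in atx1 under water deficit, against 8.88 and 7.90 in watered atx1. In MYO-OX it had 9.11 and 8.98 under water deficit, against 8.56 and 6.81 in watered plants, and in wild type 9.04 and 8.60 under water deficit, against 7.15 and 6.93. Within each genotype the water-deficit arrays were the higher ones, but the spread between watered replicates reached 1.75 in MYO-OX. The wild-type change of 1.78 (SE 0.54, adjusted p = 0.0521) lay just outside the threshold, and it passed in 7 of 12 alternative settings, among them median centring of each array (adjusted p = 0.046). All 7 kept both arrays of each wild-type group, and the change did not pass when any wild-type array was left out. The changes in atx1 and MYO-OX were 0.86 (adjusted p = 0.547) and 1.36 (adjusted p = 0.106). ATG8C had changes of 1.16 in atx1, 0.61 in MYO-OX and 0.98 in wild type, none of which passed (adjusted p = 0.195, 0.323 and 0.132). Its arrays were separated by water state in atx1 and wild type and overlapped in MYO-OX, where the watered replicates read 9.95 and 8.70.

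ATG8E, ATG8G and ATG8F had the smallest changes of the 8 genes in wild type. ATG8E had 8.39 and 9.57 in atx1 under water deficit, against 8.88 and 9.94 in watered atx1. In MYO-OX it had 9.24 and 9.66 under water deficit, against 10.39 and 9.30 in watered plants, and in wild type 9.37 and 8.79 under water deficit, against 9.07 and 8.66. The replicates of 3 groups, atx1 in both states and watered MYO-OX, lay more than 1 log2 unit apart, which is more than any water-deficit change of this gene. The ATG8E changes were -0.43 in atx1, -0.40 in MYO-OX and 0.21 in wild type (adjusted p = 0.826, 0.647 and 0.88), with 95% confidence intervals of -1.64 to 0.78, -1.61 to 0.81 and -1.0 to 1.43. A lower level by 1 log2 unit in atx1 or MYO-OX, or a higher one by 1 in wild type, thus lies within the interval. ATG8F had 10.79 and 11.80 in atx1 under water deficit, against 11.05 and 11.32 in watered atx1, 11.31 and 11.63 in MYO-OX under water deficit, against 11.12 and 10.69 in watered MYO-OX, and 11.49 and 11.13 in wild type under water deficit, against 10.72 and 10.33 in watered wild type. Its water states overlapped in atx1 and not in the other genotypes. Its changes were 0.11 in atx1, 0.57 in MYO-OX and 0.78 in wild type, and none passed (adjusted p = 0.954, 0.275 and 0.156). ATG8G had changes of 0.84, 0.49 and 0.63 in atx1, MYO-OX and wild type (adjusted p = 0.339, 0.401 and 0.32). Of the 8 genes, ATG8F had the narrowest range of group means, 0.94, and ATG8H the widest, 4.56.

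**Figure D2:**
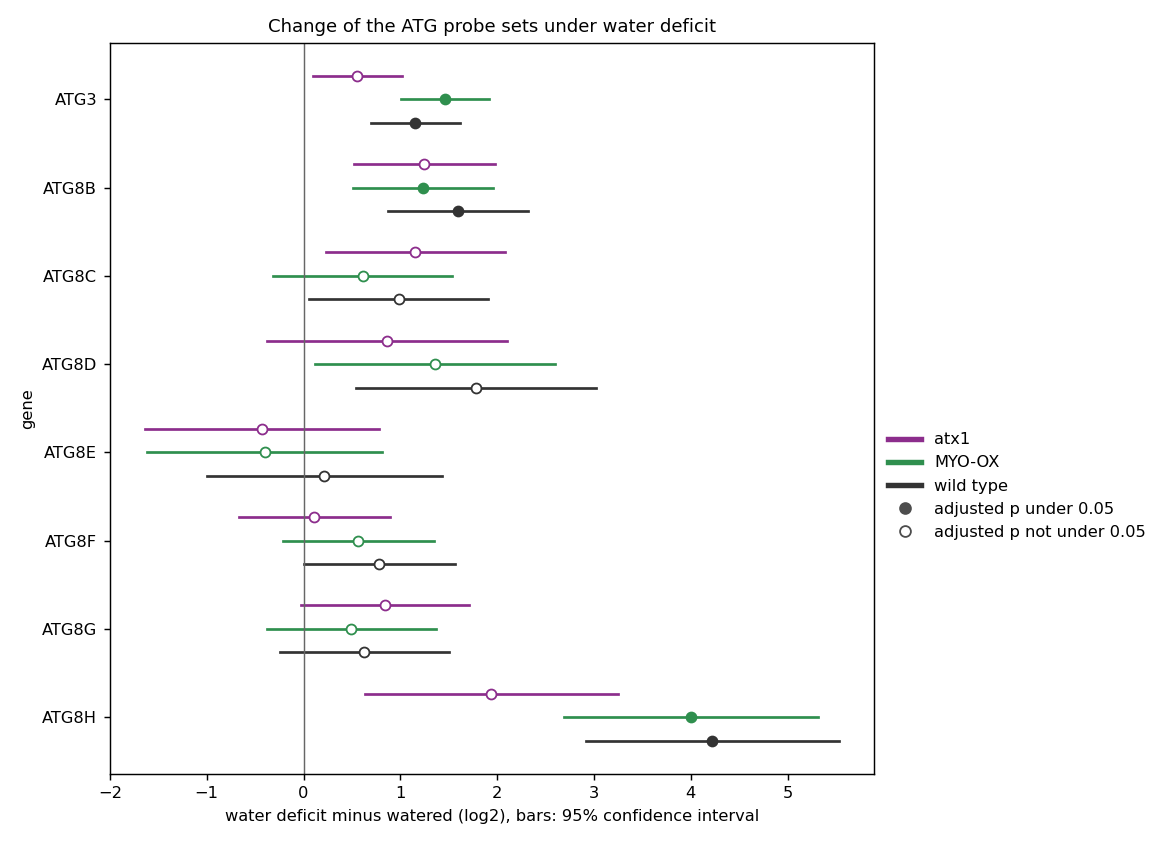
Change under water deficit (horizontal axis, water deficit minus watered, log2) of each ATG gene in atx1, MYO-OX and wild type, with lines for the 95% confidence interval and filled points for an adjusted p under 0.05. ATG8H stands apart at 4.0 in MYO-OX and 4.22 in wild type, and at 1.94 in atx1, and ATG8E lies between -0.43 and 0.21.

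Counted together, 0 of 8 ATG probe sets passed in atx1, 3 rose in MYO-OX and 3 rose in wild type, and none fell. The share of all probe sets called higher was 2.1% in atx1, 10.7% in MYO-OX and 8.96% in wild type, and the share called lower was 1.09%, 14% and 10.7% in the same order. At an unadjusted p under 0.05 in limma, 4 of 8 passed in atx1, 4 in MYO-OX and 6 in wild type, where 15.7%, 36.6% and 31.8% of all probe sets did, so that the MYO-OX count lay near the share over all probe sets. The genes that rose in MYO-OX and in wild type were ATG3, ATG8B and ATG8H in both cases, each genotype being tested against its own watered plants. The median change over the 8 was 0.85 in atx1, against -0.01 over all probe sets. In MYO-OX it was 0.92, against 0.04, and in wild type 1.07, against 0.01. The water-deficit arrays lay above the watered ones without overlap for 6 of 8 in atx1, 5 of 8 in MYO-OX and 7 of 8 in wild type, where 20.9%, 29.4% and 34% of all probe sets did so. Without watered MYO-OX replicate 1 the MYO-OX count was 6, with ATG8C, ATG8D and ATG8G added at changes of 1.24, 2.24 and 1.14, while the share of all probe sets called in either direction was 16.9%, against 24.7% with all arrays. With wild-type water-deficit replicate 1 left out the wild-type count was 1, and without wild-type watered replicate 1 it was 2, with 6.34% and 8.08% of all probe sets called, against 19.6% with all arrays. ATG8H was called in MYO-OX and in wild type whichever array was left out, but the size of its MYO-OX change was 4.80 without watered replicate 1 and 3.20 without watered replicate 2.

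In 3 of the 6 groups nearly all ATG genes differed in the same direction between the 2 arrays. In watered MYO-OX, 7 of 8 ATG probe sets were higher on replicate 1, with a median difference of 1.17, against 0.09 over all probe sets, and ATG3 was the exception at -0.22. In atx1 under water deficit, 7 of 8 were higher on replicate 2, with a median difference of -0.68, against 0.02 over all probe sets, and ATG8C was the exception at 0.20. In wild type under water deficit all 8 were higher on replicate 1, with a median difference of 0.39, against 0.05 over all. The array with high ATG8 levels in watered MYO-OX was the one with the low RCA level, and its GAPDH difference was 1.09, against 0.44 on replicate 2. In atx1 under water deficit the array with low ATG8 levels had the GAPDH difference of 1.74 and the other 1.19. The GAPDH differences were alike, at 0.56 and 0.58, in wild type under water deficit, where the ATG levels differed. They were apart, at 0.96 and 0.48, in watered atx1, where the median ATG difference was -0.10. The part of RNA quality or leaf state in these differences was not tested.

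**Figure D3:**
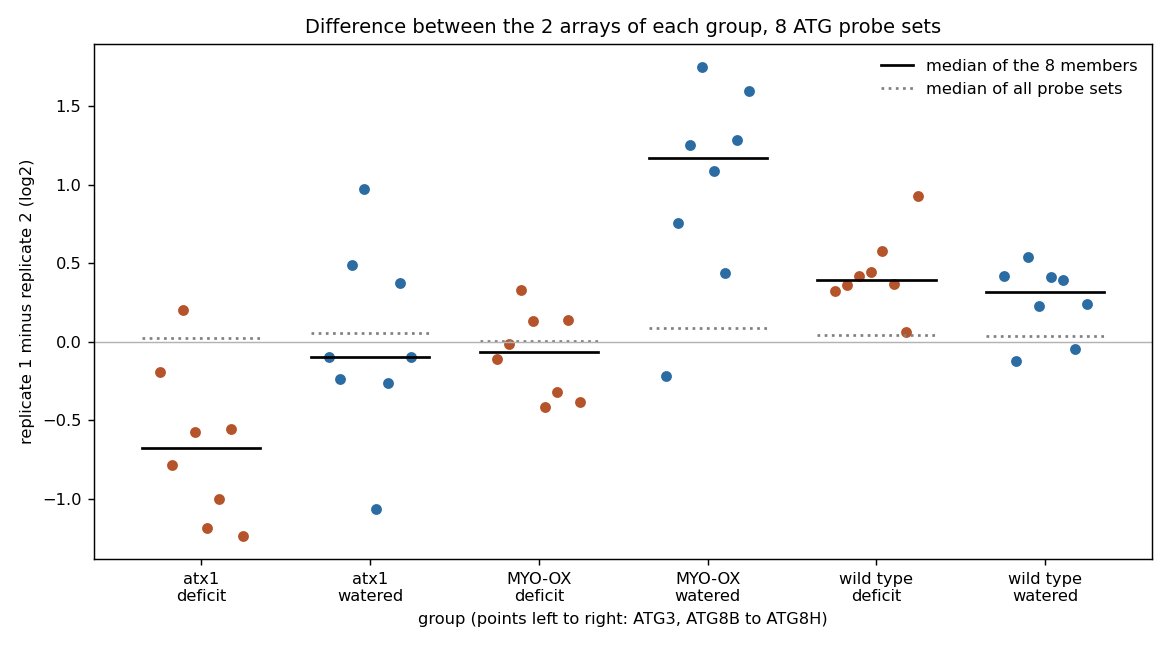
Difference between replicate 1 and replicate 2 (vertical axis, log2) of the 8 ATG probe sets in each group, ordered from ATG3 through ATG8B to ATG8H, with a black line for their median and a dotted line for the median of all probe sets. The median is 1.17 in watered MYO-OX and -0.68 in atx1 under water deficit, while that of all probe sets is at most 0.09.

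The next question was whether the genotypes differed in their ATG levels. In watered plants all 8 ATG probe sets, and 55.5% of all probe sets, had a higher mean in atx1 than in wild type. The differences of the 8 ran from 0.20 (ATG8C) to 1.35 (ATG8D), with a median of 0.60, against 0.04 over all probe sets. None passed in limma (0 of 8), where 2.2% of all probe sets were called. At an unadjusted p under 0.05 there were 3 of 8, and 12.6% of all probe sets. ATG8D had 8.88 and 7.90 in watered atx1, against 7.15 and 6.93 in watered wild type (SE 0.54, adjusted p = 0.334). ATG8B differed by 0.81 (SE 0.32, adjusted p = 0.321) and ATG3 by 0.52 (SE 0.20, adjusted p = 0.31). The 2 atx1 arrays lay above both wild-type arrays for 6 of 8, as for 23.6% of all probe sets, and ATG8C and ATG8E overlapped. The ATG8C difference turned sign in 3 alternatives, reaching -0.07 with the hybridization spikes as a covariate.

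Under water deficit ATG8H had a lower mean in atx1, with 8.59 and 9.82 against 11.20 and 10.27 in wild type, a difference of -1.53 (SE 0.57, adjusted p = 0.129) that did not pass. The other 7 differences lay between -0.09 (ATG8E) and 0.55 (ATG8G). None of the 8 passed in limma, where 12.1% of all probe sets were called. At an unadjusted p under 0.05 there was 1 of 8, and 26.2% of all probe sets. Both ATG8H arrays lay below both wild-type arrays, as for 28.8% of all probe sets, and the arrays of ATG8C and ATG8G lay above (2 of 8), as for 32.9%. Over the 12 alternatives the ATG8H difference ranged between -2.15 and -0.91, with an adjusted p of 0.0794 to 0.559. It was -0.91 without atx1 water-deficit replicate 1 and -1.06 without wild-type water-deficit replicate 1. The signs of the small differences of ATG3, ATG8C, ATG8D, ATG8E, ATG8F and ATG8G turned in at least 1 alternative, so no direction is given for them.

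MYO-OX had the higher mean for all 8 ATG probe sets in watered plants, by 0.08 (ATG3) to 0.99 (ATG8E), and also under water deficit, by 0.16 (ATG8F) to 0.39 (ATG3). Among all probe sets 51.8% had the higher mean in watered MYO-OX and 56.5% in MYO-OX under water deficit. The 8 ATG probe sets share the same arrays, so their common direction is not 8 separate observations. None passed in either water state (0 of 8 in limma, and 0 at an unadjusted p under 0.05), and 0% of all 22746 probe sets were called, with 606 and 147 at an unadjusted p under 0.05. The 95% confidence interval for ATG8H was -0.75 to 1.86 in watered plants and -0.98 to 1.64 under water deficit. A level higher by 1 log2 unit in MYO-OX thus lies within the interval in either state, and one lower by 1 lies outside it. The arrays lay above those of wild type without overlap for 2 of 8 in watered plants, as for 11.1% of all probe sets, and for 3 of 8 under water deficit, as for 13.7%. Without watered MYO-OX replicate 1 the watered differences of ATG8C, ATG8D, ATG8G and ATG8H were below 0, at -0.31 for ATG8G, the lowest. The sign also turned in at least 1 alternative for ATG3 in watered plants and for ATG8C, ATG8D, ATG8F, ATG8G and ATG8H under water deficit.

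The difference of the responses was tested directly. The atx1 response of ATG8H differed from that of wild type by -2.28 (SE 0.81, 95% confidence interval -4.13 to -0.43), with an unadjusted p = 0.0214 and an adjusted p = 0.366. It lay between -2.90 and -1.66 in every alternative, with an adjusted p of 0.203 or more. Among all probe sets 0.624% had a difference as low as this, and 0.176% were called. The differences of the other 7 ATG genes ran from -0.92 (ATG8D) to 0.21 (ATG8G), and none passed. Of the 8, 0 were called in limma and 1 had an unadjusted p under 0.05, as 10.2% of all probe sets did. ATG3 differed by -0.60 (SE 0.28, adjusted p = 0.536). The MYO-OX responses differed from those of wild type by -0.61 (ATG8E) to 0.31 (ATG3), none passed in limma, none did at an unadjusted p under 0.05, and 0% of all probe sets were called. For ATG8H that difference was -0.22 (95% confidence interval -2.07 to 1.63). Comparisons with wild type rest on the same 4 wild-type arrays and are not independent of each other.

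**Figure D4:**
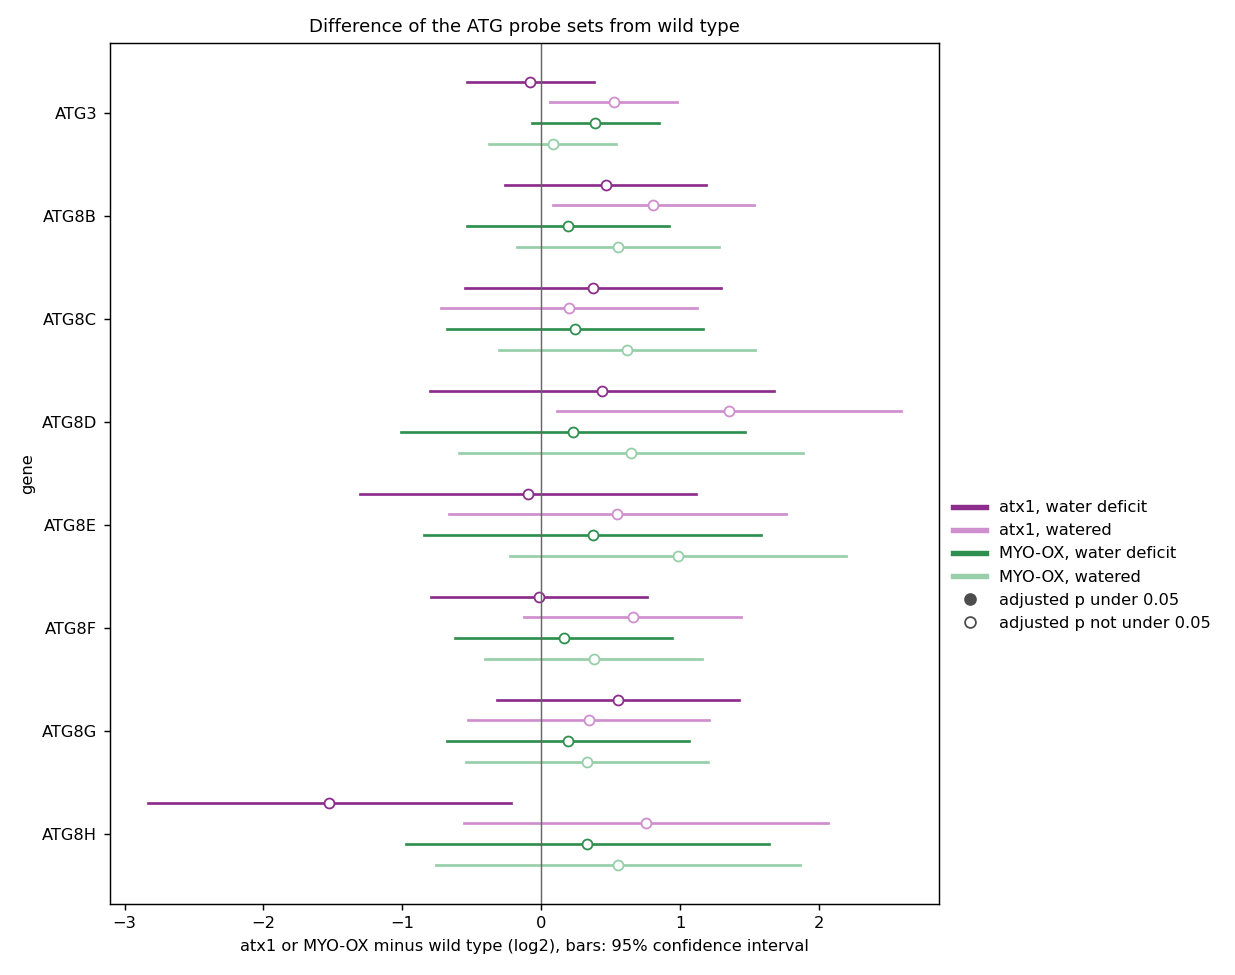
Difference from wild type (horizontal axis, atx1 or MYO-OX minus wild type, log2) of each ATG gene under water deficit and in watered plants, with lines for the 95% confidence interval and open points where the adjusted p was not under 0.05. All points are open, and ATG8H in atx1 under water deficit lies lowest at -1.53.

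A search by other names found 3 more ATG genes, and both their water-deficit arrays lay above both watered ones in each genotype. ATG8A (AT4G21980, listed as APG8A), ATG8I (AT3G15580, listed as APG8H) and ATG101 (AT5G66930, listed by its locus), which works in the kinase complex that starts autophagy, all rose in wild type. ATG8A had 10.56 and 9.91 in wild type under water deficit, against 8.64 and 8.45 in watered wild type (change 1.70, SE 0.36, adjusted p = 0.0133). The change of ATG8I was 0.95 (SE 0.28, adjusted p = 0.0477) and that of ATG101 was 1.60 (SE 0.38, adjusted p = 0.0198). The 3 of 3 called higher stand beside 8.96% of all probe sets. In MYO-OX ATG8A rose by 1.36 (adjusted p = 0.0276), while the changes of ATG8I and ATG101 were 0.73 and 1.07 and did not pass (adjusted p = 0.0961 and 0.0715). In atx1 none passed, with changes of 0.97, 0.70 and 0.97 (adjusted p = 0.228, 0.271 and 0.248), and all 3 had an unadjusted p under 0.05, as 15.7% of all probe sets did. Of the wild-type calls, that of ATG8I lay close to the threshold, and all of them depended on single arrays. All 3 were lost when wild-type water-deficit replicate 1 was left out (adjusted p = 0.117, 0.304 and 0.154), the MYO-OX call of ATG8A was lost without any 1 of 3 MYO-OX arrays (adjusted p up to 0.104 over all alternatives), and ATG8I was not called in 8 of 12 alternatives. ATG8I, like ATG8H, needs no trimming of its protein, and its wild-type change was 0.95, where that of ATG8H was 4.22.

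**Figure D5:**
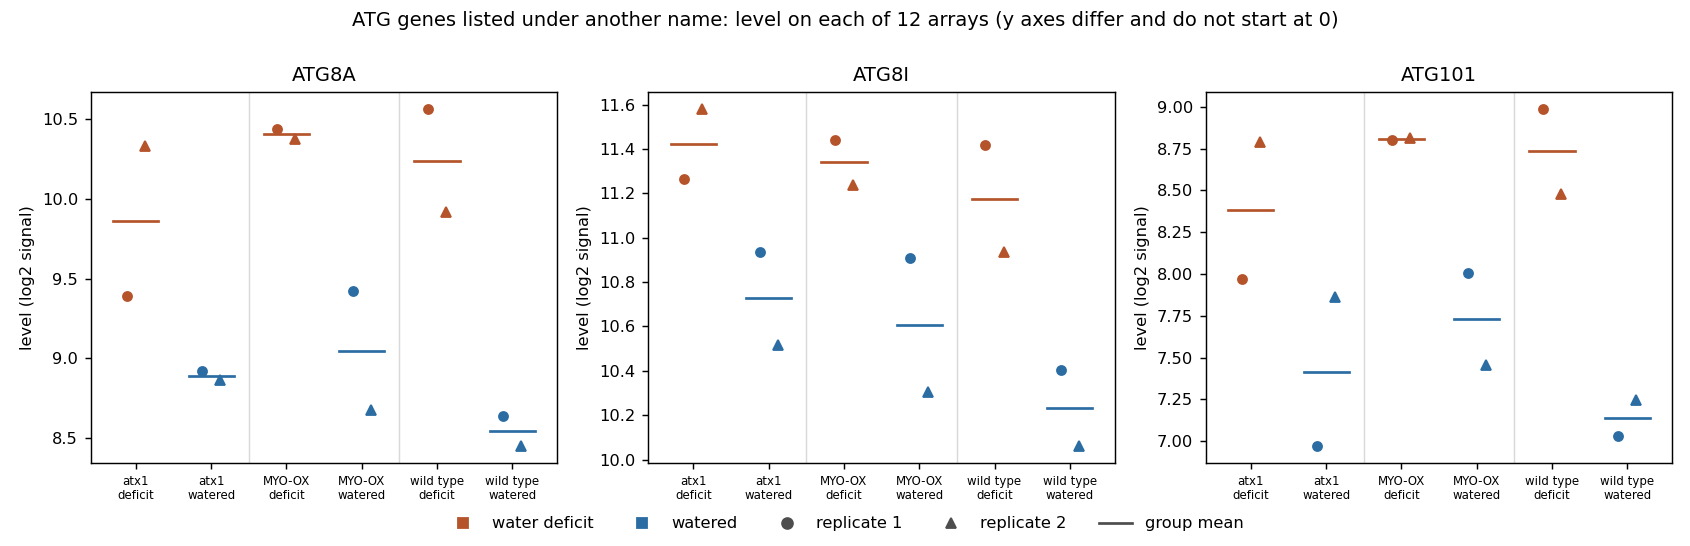
Level (vertical axis, log2 signal) of ATG8A, ATG8I and ATG101 on the 12 arrays by genotype and water state, with orange for water deficit, blue for watered, circles and triangles for replicates 1 and 2 and lines for group means. In each genotype both water-deficit arrays lie above both watered arrays for each of the 3 genes.

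Other parts of the pathway were sparsely named on the array. Of 27 listed names of autophagy regulators 3 were measured, and none passed in any genotype. RAPTOR1, a subunit of the TOR kinase complex that restrains autophagy, had changes of 0.62, 1.53 and 1.2 in atx1, MYO-OX and wild type (adjusted p = 0.89, 0.337 and 0.526). It passed in all 3 when the hybridization spikes were a covariate (adjusted p = 0.0305, 0.00739 and 0.0353). Its watered replicates 1 and 2 lay far apart, at 5.71 and 7.94 in atx1, 5.26 and 7.88 in MYO-OX and 5.89 and 7.94 in wild type. The other regulators measured, GAPC2 and RAPTOR2, had wild-type changes of -0.54 and -0.05 (adjusted p = 0.119 and 0.972). VPS2.1, of the ESCRT membrane-remodelling machinery and the measured 1 of 16 names of trafficking partners, rose by 1.01 in wild type (adjusted p = 0.0237), a call lost without any 1 of 3 wild-type arrays (adjusted p up to 0.185). None of the 16 names of receptors and adaptors was measured. Of 15 listed names of senescence genes 3 were measured. SAG29, the sugar transporter gene also called SWEET15, rose by 3.72 in atx1, 5.14 in MYO-OX and 5.30 in wild type (adjusted p = 0.025, 0.00144 and 0.00141). WRKY53, a transcription factor gene of leaf senescence, fell by 1.75 in MYO-OX (adjusted p = 0.0259) and by 1.58 in wild type (adjusted p = 0.0436). SAG101 fell by 1.3 in MYO-OX (adjusted p = 0.0077), a call lost when only the MYO-OX arrays were fitted (adjusted p = 0.12). Its wild-type change of -0.78 (adjusted p = 0.0628) passed in 4 of 11 alternatives, none of which left a wild-type array out. In atx1 the changes of WRKY53 and SAG101 were -0.26 and -0.31, and neither passed. The levels of SAG101 were dim, with water-deficit means at or above 8.78% of probe sets in MYO-OX and 7.43% in wild type. Signal above background was not shown there. The atx1 call of SAG29 was lost without water-deficit replicate 2 (adjusted p = 0.15) or watered replicate 2 (adjusted p = 0.139), and its MYO-OX change was 6.15 without watered replicate 1 and 4.13 without watered replicate 2. WRKY53 lost its MYO-OX call without any 1 of the 4 MYO-OX arrays (adjusted p up to 0.13) and its wild-type call without any 1 of 3 wild-type arrays (adjusted p up to 0.268), with a change of -0.94 without watered replicate 1.

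Of 12 listed names of vacuolar proteases 4 were measured. All 4 are vacuolar processing enzymes, proteases of the compartment that receives autophagosomes. BETA-VPE had 7.61 and 8.05 in atx1 under water deficit, against 4.72 and 5.0 in watered atx1 (change 2.97, adjusted p = 0.00948). It rose by 4.49 in MYO-OX and by 3.92 in wild type (adjusted p = 0.00043 and 0.000734), and the MYO-OX change was 3.80 without watered replicate 1 and 5.17 without watered replicate 2. Its atx1 call was lost without water-deficit replicate 2 or either watered array (adjusted p = 0.0602 to 0.0704). Of the 4 genes, 2 rose in atx1, 3 in MYO-OX and 2 in wild type, beside 2.1%, 10.7% and 8.96% of all probe sets, and none fell. The wild-type count was 1 without any 1 of the 4 wild-type arrays, when ALPHA-VPE was not called (adjusted p = 0.0535 to 0.228). DELTA-VPE rose by 2.93 in atx1 (adjusted p = 0.000453), a call lost when only the atx1 arrays were fitted (adjusted p = 0.0712), where 0% of all probe sets were called. GAMMA-VPE rose in MYO-OX by 2.45 (adjusted p = 0.0111), a call lost without water-deficit replicate 2 (adjusted p = 0.0664), and the change was 1.52 without watered replicate 1 and 3.39 without watered replicate 2. Its wild-type change of 1.68 (adjusted p = 0.0541) passed in 7 of 12 alternatives (adjusted p = 0.0175 to 0.0417). All 7 kept both arrays of each wild-type group, and the change did not pass when any wild-type array was left out.

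The genes whose levels ran most like the mean of the 8 ATG genes over the 12 arrays were looked for among 1544 other genes with a symbol and 1 gene per probe set. The highest Pearson r belonged to ATG8A, at 0.966, followed by MED9 at 0.959, GEM at 0.955, ATG8I at 0.953 and VPS20.1 at 0.947. The 12 points share the contrast of the 2 water states. Within the 6 water-deficit arrays r was 0.904 for ATG8A and 0.601 to 0.78 for the other 4. Within the 6 watered arrays it was 0.906 to 0.956 for all 5. Over the 12 arrays ATG8E followed the others least, with r = 0.161 to the mean of the remaining 7, where the others had 0.829 (ATG8G) to 0.944 (ATG8B). This order did not hold within a water state. Among the 6 water-deficit arrays ATG8E had 0.955 and ATG8C was lowest at -0.00897, and among the 6 watered arrays ATG8E had 0.66 and ATG3 was lowest at 0.287. These values are a description, and the arrays are the same for every gene.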

How the data were processed

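The deposited values, made by the authors, are log2 signals of 22810 probe sets on 12 arrays. Per the submitters' processing notes they were made with RMA, of a version not given. The 64 control probe sets were set apart. Genes were named through the array's annotation table, in which 13513 probe sets had 1 gene and 503 several, with 8730 unlisted, and loci through RefSeq for TAIR10.1. All 22746 probe sets were fitted over the 12 arrays with a mean for each of the 6 groups, in R 4.3.3 with limma 3.58.1 (6 residual and 2.34 prior degrees of freedom), with two-sided p-values adjusted by Benjamini-Hochberg within each of 9 comparisons and a call at an adjusted p under 0.05. The procedure was tested on simulated data with independent noise for each probe set and array. Deviations shared by many probe sets of an array were not simulated. ATG genes found by name were all described, and of each list the 3 called genes of largest change at most. The measured autophagy regulators, none of them called, were given as well. The members and lists were chosen with earlier results of these data known. Alternatives tried were median centring, a block for replicate number, repeated quantile normalization, the dimmest 40% left out, an intensity trend with robust prior, only the arrays of a comparison, GAPDH or hybridization controls as covariates, and each array left out. No sequence table was used here.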

Additional observations from a re-analysis of the deposited data

Results flagged for a closer look

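DELTA-VPE, a vacuolar processing enzyme gene listed beside the ATG genes, was the single listed gene whose atx1 response differed from that of wild type, by 3.07 on the log2 scale (limma adjusted p = 0.00991). It had 9.03 and 8.80 in atx1 under water deficit, against 6.13 and 5.83 in watered atx1. In wild type it had 4.0 and 3.85 under water deficit, against 4.07 and 4.06 in watered plants. These wild-type group means lay at or above only 15% and 19.6% of probe sets. Signal over background cannot be read from these values, and a fall from so dim a level in wild type might not be seen. The size of the difference rests on those dim values. The call ended without either watered atx1 array, without wild-type water-deficit replicate 1 and without either watered wild-type array, with adjusted p of 0.0561 to 0.0865, while the difference stayed between 2.66 and 3.22 in all alternatives.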

How the results depend on the processing

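The 12 arrays, 2 per group, limit every statement, and signal over background cannot be read from these values. In 928 recomputed changes of the 8 ATG genes, 845 kept their direction and side of the threshold, 16 came to pass, 8 ceased to pass, 59 that passed in neither setting changed sign, and none that was called turned round. The wild-type count of 3 ATG probe sets was 5 with the GAPDH covariate, 5 with the hybridization covariate, 5 when its own arrays alone were fitted, and 1 to 3 when an array was left out, while the share of all probe sets called, 19.6% at first, was 25.5%, 28.5%, 27.9% and 6.34% to 13.2%. The MYO-OX count of 3 was 1 when its own arrays alone were fitted and 2 to 6 when an array was left out, with 5.17% and 11.8% to 34.1% of all probe sets called, against 24.7%. The atx1 count of 0 was 0 to 1 when an array was left out, with 0.778% to 2.77% of all called, against 3.19%. With the GAPDH covariate the atx1 count was 0 and 17.2% of all probe sets were called. With the hybridization covariate the atx1 count was 0 and 9.93% were called. For the other 6 comparisons the count was 0 in every alternative. The causes were not tested. With the replicate number as a block the counts were 5 in wild type and 1 in atx1 (ATG8C, adjusted p = 0.0495), with 23.9% and 4.21% of all probe sets called. The labels do not say that a number pairs arrays across groups, so the main fit did not use the numbers as pairs. Deviations of same-numbered arrays nevertheless correlated at -0.286 to 0.561 over the 15 pairs of groups, above 0.1 in 9. The hybridization spikes also read higher on replicate 1 than on replicate 2 in every group. Whether arrays of the same number were handled together was not tested. Median centring moved the median change of all probe sets to 0.12 in wild type, 0.15 in MYO-OX and -0.22 between atx1 and wild type under water deficit. Without centring these medians were 0.01, 0.04 and 0.01.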
